A study of Mus musculus with 2 samples.

Results

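The 5 genes of the NF-kB family, Rela, Rel, Relb, Nfkb1 and Nfkb2, were followed through the cells of KPPC mouse pancreatic tumours treated with vehicle or with takinib. They were picked by symbol as 5 of the 32285 genes listed for each library, and each symbol had 1 row. Single-cell RNA was measured by droplet capture in 2 libraries, 1 for vehicle and 1 for takinib at 50 mg/kg, from tumours of KPPC mice that were 6 weeks old and treated for 14 days. KPPC names a genetically engineered mouse model of pancreatic cancer whose alleles and Cre driver the labels do not spell out; both groups carry the same genotype label. The number of mice behind a library is not given. With 1 library per group there was no replicate check and no test was run, so all intervals in square brackets are 95% intervals that cover counting error only.

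NF-kB proteins act as dimers that bind kB sites in DNA. Rela (p65), Rel (c-Rel) and Relb carry transactivation domains, while Nfkb1 and Nfkb2 encode the precursors p105 and p100, which are processed to the DNA-binding subunits p50 and p52. In resting cells inhibitors of the IkB family hold the dimers in the cytoplasm. The canonical arm, in which the kinase TAK1 (encoded by Map3k7) activates the IKK complex, frees mainly Rela and Rel with p50, and the non-canonical arm, through NIK (encoded by Map3k14), yields Relb with p52. Takinib is known as an inhibitor of TAK1, so the comparison asked what the transcripts of the subunits downstream of that kinase looked like in each type of cell. Transcript counts say nothing about nuclear entry or processing of the proteins.

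In the GENCODE M21 annotation of GRCm38, Rela (ENSMUSG00000024927) lies at chr19:5637483-5648130 on the plus strand, Rel (ENSMUSG00000020275) at chr11:23736847-23770970 on the minus strand and Relb (ENSMUSG00000002983) at chr7:19606217-19629438 on the minus strand. Nfkb1 (ENSMUSG00000028163) lies at chr3:135584655-135691547 on the minus strand and Nfkb2 (ENSMUSG00000025225) at chr19:46304320-46312385 on the plus strand. Nfkb2 overlaps 2 genes on the opposite strand that are counted in the same files, Psd and AC114539.1, and how the counting used strand is not given in the sources used here. Several subunit genes are known targets of NF-kB itself, so the 250 bases before each RefSeq start site were searched on both strands for the kB consensus, with overlapping matches joined. The RefSeq table (GRCm38.p6) held 1 promoter for Rel, 1 for Rela and 3 for Nfkb2; no promoter of Nfkb1 or Relb was used here. The match is in capitals in the 30-base windows below, which show the kB-type sequences of the members that had one, written 5′ to 3′ on the strand of the gene.
Rel, chr11:23771041-23771070, minus strand: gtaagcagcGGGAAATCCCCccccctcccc
Nfkb2, chr19:46304689-46304718, plus strand: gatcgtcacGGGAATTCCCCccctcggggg
Nfkb2, chr19:46304716-46304745, plus strand: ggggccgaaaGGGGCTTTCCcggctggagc
Nfkb2, chr19:46305449-46305478, plus strand: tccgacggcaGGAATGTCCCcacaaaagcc
Nfkb2, chr19:46305695-46305724, plus strand: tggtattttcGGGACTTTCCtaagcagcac
The matches began 92 bases before the start site of Rel and 39, 11, 236 and 225 bases before the 3 start sites of Nfkb2. The Rel window overlapped no annotated gene. All 4 Nfkb2 windows lay inside the annotated span of Nfkb2, 3 of them also inside that of AC114539.1, and 30, 30, 0 and 29 of their bases were exonic in Nfkb2. The Rela promoter held no match in this window. Of 32851 RefSeq promoters of the same length, 2382 (7.25%) held at least 1 match to the consensus. A match describes letters, not a bound site.

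After the same filters in both libraries, 9591 vehicle cells with 42140002 UMIs (unique molecular identifiers, 1 per captured transcript) and 25183 takinib cells with 119674852 UMIs were kept. Median depth was 3558 UMIs in vehicle and 2891 in takinib, and the median mitochondrial share was 8.71% and 1.78%. Per the headers of the files, vehicle was counted with Cell Ranger 4 and takinib with Cell Ranger 6.1.1. The takinib barcodes started at 500 UMIs, whereas the vehicle matrix listed all 704261 barcodes, empty ones included. Vehicle held 3098 cells with Y-linked UMIs and no Xist and 1081 cells with Xist and no Y-linked UMIs. Takinib held 0 cells of the first kind and 14314 of the second. Drug, library, software, barcode filter and mitochondrial share thus cannot be told apart. Sex of the animals also differed between the libraries, and only cells with Xist and no Y-linked UMIs can be set beside each other in both. The libraries shared 363 kept barcodes, 3.78% of the vehicle and 1.44% of the takinib cells. Clusters were named from marker genes, with the 5 subunits left out of the clustering genes. Of the named classes, 8 had at least 100 cells in each library: macrophage-like (4954 in vehicle and 4407 in takinib), epithelial-like (1156 and 1091), epithelial- or acinar-like (595 and 748, led by Tff2, Reg1 and Gkn3), fibroblast-like (650 and 312), B-like (205 and 660), T- or NK-like (222 and 1034), dendritic-like (145 and 118) and neutrophil-like (269 and 8352).

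Each subunit had its own order of levels over these classes. Levels are in CPM, the usual scaling of a gene's UMIs to the size of the summed class in that library, and each gene is compared with itself only. Rel, the subunit best known from lymphocytes and antigen-presenting cells, was highest in dendritic-like cells, at 138 CPM [105, 177] in vehicle and 173 [140, 212] in takinib, and in B-like cells, at 116 [85.0, 155] and 171 [147, 197]. Its lowest vehicle level was 14.1 CPM [11.6, 17.0] in epithelial-like cells and its lowest takinib level among the 8 classes was 18.9 [14.6, 24.0] in fibroblast-like cells. Over the 10 vehicle classes of at least 100 cells, the highest level of Rel was 9.75 times its lowest. The intervals of neighbours in the vehicle order overlapped from dendritic-like through B-, neutrophil-, T- or NK- to macrophage-like cells, and then the level stepped from 45.8 CPM [43.0, 48.8] in macrophage-like to 25.0 [18.4, 33.2] in endothelial-like cells.

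Relb, the partner of p52 that dendritic cells are known to need, was the most unequal over the vehicle classes, with a highest level 12.59 times the lowest. It stood at 115 CPM [85.1, 151] in vehicle dendritic-like cells, with no overlap with the next class, perivascular-like cells at 27.5 [21.1, 35.3]. All the classes below had overlapping neighbours, down to 9.11 CPM [6.38, 12.6] in epithelial- or acinar-like cells. In takinib the dendritic-like level was 97.5 CPM [73.0, 127] and again stood clear of the next, 55.01 [51.9, 58.2] in neutrophil-like cells.

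Rela, the widely expressed canonical subunit, was the most even. Its vehicle levels ran from 32.0 CPM [29.7, 34.5] in macrophage-like to 69.1 [44.3, 103] in neutrophil-like cells, a ratio of 2.16, and every pair of neighbours in that order overlapped. In takinib they ran from 19.1 CPM [13.5, 26.4] in plasma-like to 67.6 [64.2, 71.1] in neutrophil-like cells, a ratio of 3.53. Epithelial-like cells held 51.9 CPM [46.9, 57.2] in vehicle and 52.2 [48.2, 56.5] in takinib, a level that did not differ beyond counting error.

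Nfkb1 was highest in dendritic-like cells in both libraries, at 305 CPM [255, 362] in vehicle and 230 [191, 274] in takinib. In vehicle T- or NK-like cells followed at 192 CPM [149, 243], then endothelial-like cells at 169 [152, 189] and B-like cells at 131 [98.0, 172]. In takinib the next class was the neutrophil-like cells, at 195 CPM [189, 201]. Nfkb2 was led by dendritic-like cells in vehicle, at 98.6 CPM [71.4, 133], and by neutrophil-like cells in takinib, at 111 [107, 116], with dendritic-like cells at 69.9 [49.4, 95.9]. Its lowest level among the 8 classes was in epithelial- or acinar-like cells in both libraries, 18.5 CPM [14.5, 23.2] and 19.4 [16.7, 22.4].

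**Figure D1:**
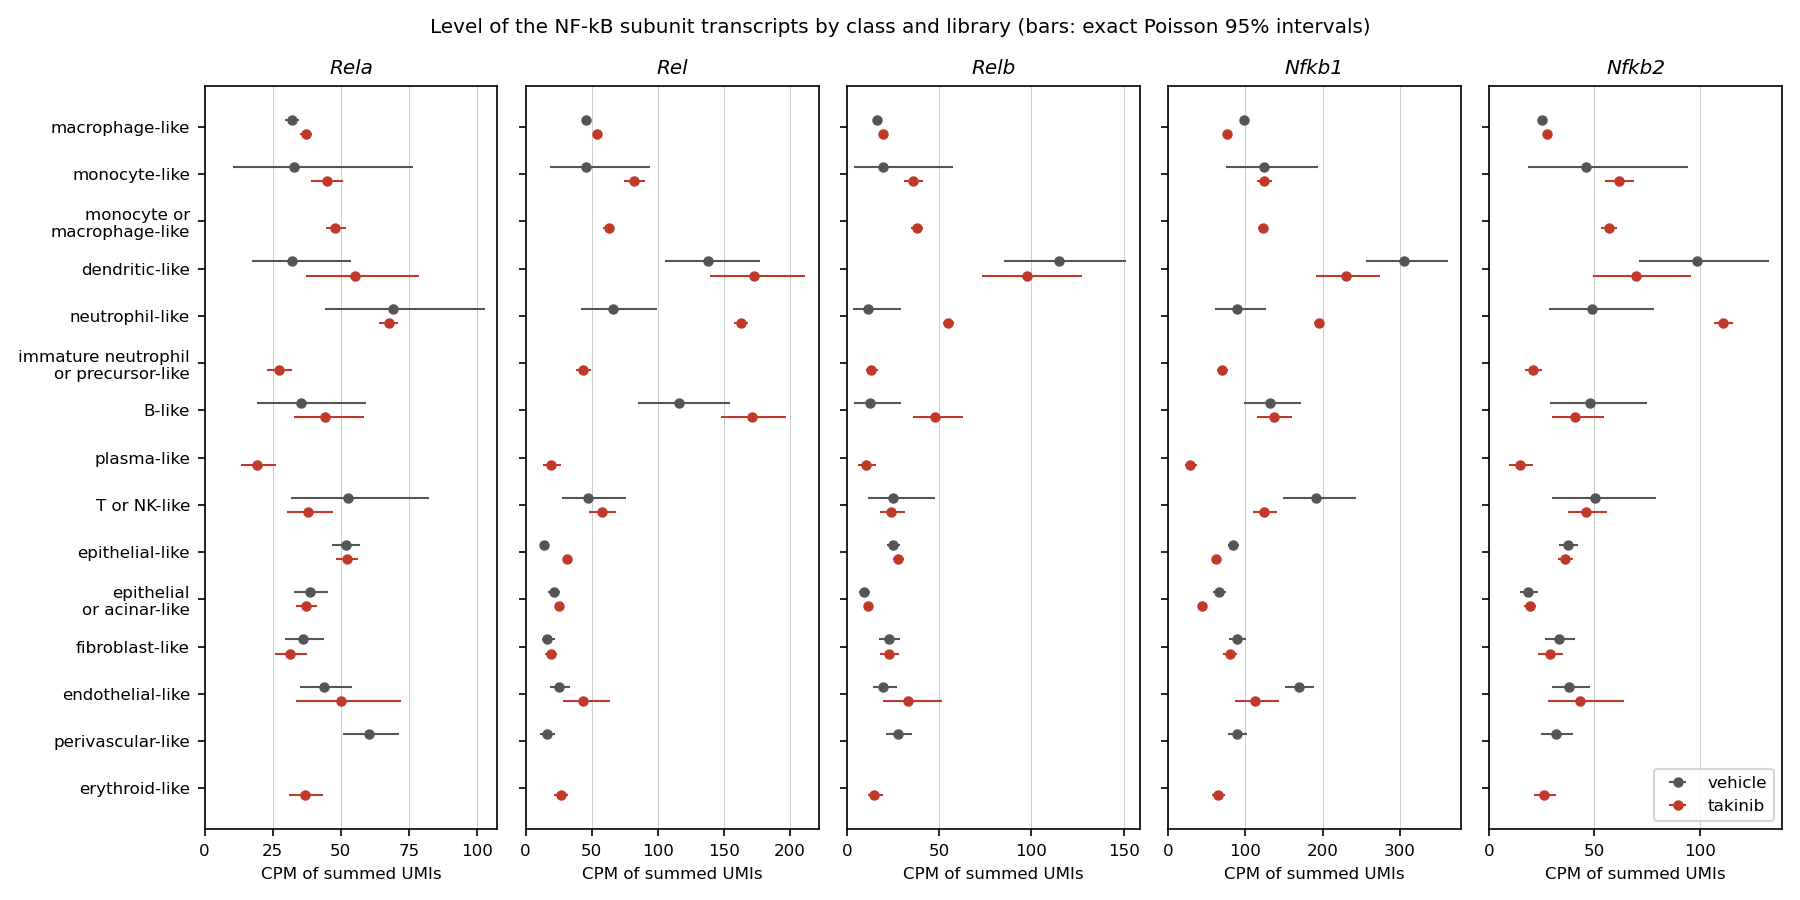
Level of each subunit (x axis, CPM of summed UMIs) in classes of at least 50 cells (y axis) in the vehicle and the takinib library, with exact Poisson 95% intervals. Relb and Nfkb1 peak in dendritic-like cells in both libraries, Rel in dendritic- and B-like cells, and the neutrophil-like points of Rel, Relb, Nfkb1 and Nfkb2 lie far to the right in takinib only.

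Summed over all kept cells, every subunit had more CPM in takinib. Rela had 38.9 CPM in vehicle and 47.8 in takinib, a log2 ratio of takinib to vehicle of 0.29 [0.22, 0.37]. Rel had 34.9 and 74.7 CPM (1.10 [1.02, 1.18]), Relb 19.3 and 31.1 (0.69 [0.58, 0.80]), Nfkb1 97.8 and 107 (0.13 [0.08, 0.18]) and Nfkb2 29.6 and 52.6 (0.83 [0.74, 0.92]). Rel, Relb and Nfkb2 were thus at least 1.5-fold higher, where 12.4% of the 15606 genes with at least 50 counts in a library were, and none was that much lower, where 33.4% were. The median gene stood at -0.32, and relative to it the ratios were 0.62 for Rela, 1.42 for Rel, 1.01 for Relb, 0.45 for Nfkb1 and 1.15 for Nfkb2.

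These sums moved with the make-up of the libraries. Neutrophil-like cells gave 0.824% of the vehicle and 18.3% of the takinib UMIs. Of the takinib UMIs of each subunit they gave 39.8% for Rel, 38.7% for Nfkb2, 33.4% for Nfkb1, 32.3% for Relb and 25.9% for Rela. When the takinib levels of the 8 classes were weighted by the UMI shares those classes had in vehicle, the log2 ratio went from 1.08 to 0.37 for Rel, from 0.82 to 0.05 for Nfkb2, from 0.70 to 0.23 for Relb, from 0.34 to 0.10 for Rela and from 0.16 to -0.35 for Nfkb1. The sign for Nfkb1 therefore differed between the pooled sum and the sum at the vehicle make-up.

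Within classes the 5 subunits did not move together. Of the 40 pairs of a subunit and a class, 36 had at least 50 counts in a library, and of these 6 were at least 1.5-fold higher and 2 at least 1.5-fold lower in takinib; Rela and Nfkb2 in B-like and dendritic-like cells had fewer counts. Of the 6, only Rel in epithelial-like cells had at least 50 counts in vehicle. The other 5 had between 4 and 31 vehicle counts and passed this minimum only through takinib, where they were high, so these counts describe the pairs and support nothing. In neutrophil-like cells Rel, Relb, Nfkb1 and Nfkb2 were higher, on 23, 4, 31 and 17 vehicle counts, where 15% of 9431 genes were higher and 55.2% lower. In epithelial-like cells 1 of 5 was higher (Rel), where 13.6% of 11479 genes were higher and 20.9% lower. In B-like cells Relb was higher, on 5 vehicle counts, where 16.6% of 2962 genes were higher and 7.33% lower. Nfkb1 was lower in T- or NK-like cells, 1 of 5, where 17% of 5130 genes were higher and 14.5% lower, and in epithelial- or acinar-like cells, 1 of 5, where 12.6% of 10192 genes were higher and 14% lower. None of the subunits counted was past the fold in macrophage-like cells (12.7% of 11524 genes higher, 10.4% lower), fibroblast-like cells (15.4% of 8056 higher, 24.1% lower) or dendritic-like cells (14.6% of 1524 higher, 10.4% lower). The median gene moved by more than 0.1 in neutrophil-like (-0.79), epithelial-like (-0.14) and fibroblast-like cells (-0.11), and by less in the other 5 classes.

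**Figure D2:**
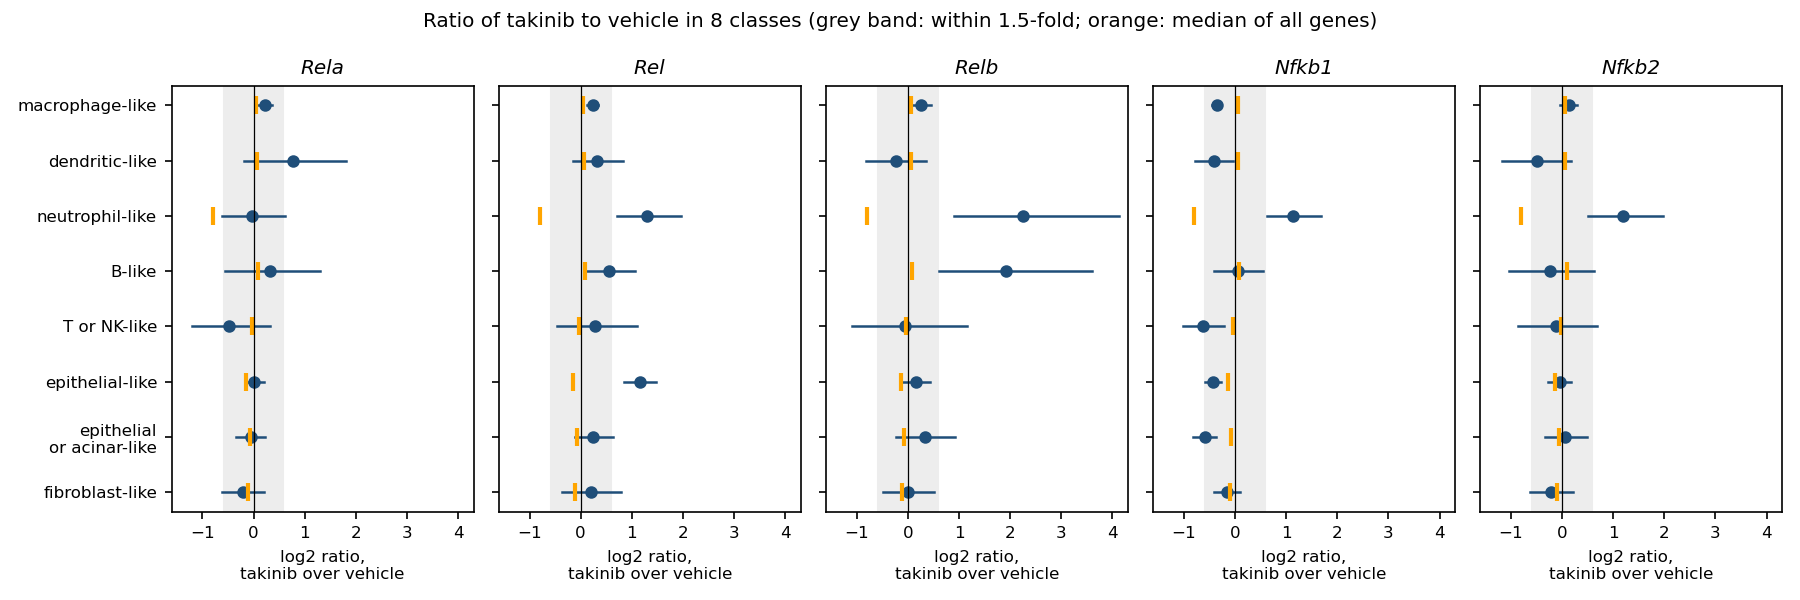
Log2 ratio of takinib to vehicle CPM for each subunit (x axis) in the 8 classes (y axis), with exact 95% counting intervals, a grey band for ratios within 1.5-fold and an orange tick at the median of all genes of the class. Rel lies right of 0 in all 8 classes and Nfkb1 left of 0 in 6, while the neutrophil-like row lies right of the band for Rel, Relb, Nfkb1 and Nfkb2, as does epithelial-like for Rel and B-like for Relb.

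Rel had a ratio above 0 in each of the 8 classes. In epithelial-like cells it went from 14.1 to 31.3 CPM, a log2 ratio of 1.15 [0.84, 1.47], and 93.2% of the genes of that class had a lower ratio. This class pooled clusters that the libraries filled unequally: 799 vehicle and 756 takinib cells were in cluster 7, 266 and 40 in a cluster led by Mir100hg and Onecut2, and 0 and 217 in one led by Gkn2 and Gkn1. The others were 1.29 [0.71, 1.95] in neutrophil-like, 0.56 [0.09, 1.06] in B-like, 0.33 [-0.15, 0.82] in dendritic-like, 0.28 [-0.46, 1.11] in T- or NK-like, 0.23 [0.12, 0.35] in macrophage-like, 0.20 [-0.37, 0.78] in fibroblast-like and 0.25 [-0.12, 0.62] in epithelial- or acinar-like cells. In 4 of these, the interval included 0. Thinning every cell to 1000 UMIs put Rel at -0.01 in the macrophage-like class and at -0.75 in the fibroblast-like class, where the alternatives ranged from -1.18 to 0.55.

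Neutrophil transcripts were at a higher level in every takinib class than in its vehicle counterpart, and their part in the ratios was not tested. The summed level of 11 neutrophil markers ran from 106 to 498 CPM over the 7 other classes of vehicle and from 3963 to 13881 CPM over those of takinib. In takinib T- or NK-like cells were at 13881 CPM with a Rel ratio of 0.28, epithelial-like at 12648 with 1.15 and fibroblast-like at 10143 with 0.20. Macrophage-like cells were at 6712 with 0.23, dendritic-like at 5618 with 0.33, epithelial- or acinar-like at 4470 with 0.25 and B-like at 3963 with 0.56. The vehicle levels of Rel differed between these classes, so nothing is read from the order. Every marker had counts in takinib apart from Ly6g in dendritic-like cells, while in vehicle Ly6g was at 0 in B-, T- or NK- and fibroblast-like cells, Retnlg and Mmp8 in T- or NK-like and Cxcr2 in dendritic-like cells. S100a8 and S100a9 together stood at 95.6 CPM in the epithelial-like cells of vehicle and at 11364 in those of takinib. The macrophage-like class held 309 and 5925 CPM, the fibroblast-like class 78.4 and 9105 and the T- or NK-like class 220 and 12742. The level in takinib neutrophil-like cells was 121792 CPM. When a takinib neutrophil profile was subtracted from each takinib class in proportion to S100a8 and S100a9, Rel in epithelial-like cells was left at 17.8 CPM and a ratio of 0.34. In fibroblast-like cells Rel went from 0.20 to -1.18, while T- or NK-like cells came to -0.07, epithelial- or acinar-like cells to -0.05 and the macrophage class to 0.07. The takinib level of Rel in epithelial-like cells, 31.3 CPM [28.2, 34.7], was also close to that of erythroid-like cells of the same library, 26.5 [21.6, 32.2]. B-like and dendritic-like cells, where Rel was highest, kept ratios of 0.56 and 0.33 under the same subtraction.

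The epithelial clusters differed among themselves in Rel. Cluster 7, led by Cdkn2a, Hmga2 and Krt7, had 14.5 CPM in 799 vehicle cells and 28.2 CPM in 756 takinib cells, a log2 ratio of 0.96 [0.62, 1.31], and was the only 1 of 5 subunits past 1.5-fold there, where 15.4% of 11053 genes were higher and 16.6% lower. A small cluster led by Mptx1, Spink4 and Muc2, the last of which encodes the mucin of goblet cells, had 2 Rel counts in 91 vehicle cells (3.15 CPM [0.38, 11.4]) and 35 in 78 takinib cells (80.5 CPM [56.0, 112]). Nfkb1 in that cluster had 55.2 CPM [38.4, 76.7] and 145 [111, 185], the opposite direction from cluster 7, where it had 83.5 and 56.2 CPM (-0.57 [-0.74, -0.40]). The cluster led by Mptx1 had fewer than 100 cells in each library, and the share of all genes higher or lower there was not counted. Its levels thus describe the 2 subunits only, and the part of neutrophil transcripts in them was not tested.

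Nfkb1 had a ratio below 0 in 6 of the 8 classes. It went from 192 to 125 CPM in T- or NK-like cells (-0.62 [-1.01, -0.22]) and from 66.6 to 44.2 CPM in epithelial- or acinar-like cells (-0.59 [-0.82, -0.36]). It went from 84.5 to 62.6 CPM in epithelial-like (-0.43 [-0.59, -0.28]), from 305 to 230 CPM in dendritic-like (-0.41 [-0.77, -0.05]) and from 97.8 to 76.4 CPM in macrophage-like cells (-0.36 [-0.44, -0.27]). Fibroblast-like cells, with -0.16 [-0.41, 0.09], and B-like cells, with 0.06 [-0.41, 0.54], held similar levels in both libraries within counting error, and neutrophil-like cells stood at 1.13 [0.62, 1.69]. Subtracting the neutrophil profile moved Nfkb1 further down, to -0.79 in the epithelial-like and to -0.48 in the macrophage-like class. When each library was clustered on its own, the epithelial-like ratio was 0.22.

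The macrophage-like class, the largest in vehicle, also lay in different clusters in the 2 libraries. Cluster 0 held 2840 vehicle and 366 takinib cells, cluster 1 held 769 and 1705, cluster 2 held 1317 and 560, and cluster 4, led by Gpnmb and Ccl8, 28 and 1776. Nfkb1 had a ratio below 0 in the 3 clusters with at least 100 cells in each library. Cluster 0, led by the class II genes H2-Ab1 and H2-Eb1, had 104 and 90.3 CPM (-0.20 [-0.42, 0.02]). Cluster 1, led by Chil3, Atp6v0d2, Lpl and Ear2, had 84.0 and 67.1 CPM (-0.32 [-0.51, -0.13]). Cluster 2, led by Trf, Apoe and Pf4, had 93.4 and 84.0 CPM (-0.15 [-0.36, 0.05]). Rel had ratios of 0.58 [0.33, 0.82], 0.53 [0.23, 0.84] and 0.30 [0.02, 0.57] in the same clusters, all above the 0.23 of the class. With those 3 clusters pooled, an alternative chosen after seeing the data, Rel was at 0.08 and Nfkb1 at -0.40. Relb was at least 1.5-fold higher in cluster 0, at 16.6 and 29.96 CPM (0.86 [0.43, 1.26]). It had 15.02 and 12.9 CPM in cluster 1 (-0.22 [-0.66, 0.25]) and 15.6 and 18.1 CPM in cluster 2 (0.22 [-0.26, 0.69]). It was the only subunit past the fold in these clusters, 1 of 5 in cluster 0 (12.9% of 9720 genes higher, 8.45% lower), 0 of 5 in cluster 1 (10.4% of 9475 higher, 5.01% lower) and 0 of 5 in cluster 2 (11.5% of 7896 higher, 8.18% lower).

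Cells of male and female origin within the vehicle library, from an unknown number of mice, gave a partial measure of how far the levels varied without the drug. In macrophage-like cells with Y-linked UMIs and no Xist, Nfkb1 had 102 CPM and Rel 48.7 CPM. In those with Xist and no Y-linked UMIs, Nfkb1 had 83.3 CPM and Rel 33.8 CPM. The log2 ratio of the first to the second was 0.29 [0.07, 0.51] for Nfkb1 and 0.53 [0.19, 0.88] for Rel. Takinib macrophage-like cells with Xist had 75.6 CPM of Nfkb1 and 54.1 of Rel. Against vehicle cells with Xist their ratio was -0.14 [-0.34, 0.07] for Nfkb1 and 0.68 [0.37, 1.00] for Rel, and against vehicle cells with Y-linked UMIs -0.43 [-0.55, -0.30] and 0.15 [-0.02, 0.33]. In macrophage-like cells the spread between the sexes of the vehicle library was thus as large as several of the ratios between libraries. In epithelial-like cells the same contrast was -0.09 [-0.94, 0.86] for Rel and -0.08 [-0.43, 0.28] for Nfkb1. For both genes its interval also included 0 in epithelial- or acinar-like and fibroblast-like cells and over all kept cells. In epithelial-like cells with Xist in both libraries, Rel had 15.2 and 32.1 CPM (1.08 [0.31, 1.96]) and Nfkb1 88.1 and 62.5 CPM (-0.50 [-0.83, -0.15]), close to the values of all epithelial-like cells.

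Neutrophil-like cells had the largest ratios, but different clusters held the class in the 2 libraries. Of the 269 vehicle cells 268 were in cluster 11, led by Ppy, Retnlg, Cxcr2 and Ins2, in which the islet hormone genes Ppy and Ins2 stand beside markers of mature neutrophils. Of the 8352 takinib cells, 2538 were in cluster 11 and 5814 in cluster 20, led by Ccl4, Ccl3 and Cxcl2, chemokine genes of activated neutrophils, which held 1 vehicle cell. Over the class, Nfkb1 had 89.3 and 195 CPM, Nfkb2 49.0 and 111 CPM (1.18 [0.50, 1.97]), Rel 66.3 and 163 CPM and Relb 11.5 and 55.01 CPM (2.26 [0.90, 4.13]), the last resting on 4 vehicle counts. Rela had 69.1 and 67.6 CPM (-0.03 [-0.61, 0.61]), which relative to the median gene of the class was 0.76.

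Within the shared cluster 11 all 5 intervals included 0, where the median gene stood at -0.36. Nfkb1 had 89.7 CPM in vehicle and 91.2 in takinib (0.02 [-0.50, 0.60]), Nfkb2 49.2 and 50.7 (0.04 [-0.67, 0.85]) and Rela 69.4 and 57.7 (-0.27 [-0.87, 0.40]). Rel had 66.5 and 85.3 CPM (0.36 [-0.25, 1.03]) and Relb 11.6 and 21.2 (0.87 [-0.53, 2.78]), so that 1 of 5, Relb on 4 vehicle counts, was at least 1.5-fold higher, where 16.1% of 6164 genes were higher and 37% lower. The takinib cluster 20 held 223 CPM of Nfkb1 [216, 230], 183 of Rel [177, 189], 127 of Nfkb2 [122, 133], 70.2 of Rela [66.3, 74.3] and 63.9 of Relb [60.2, 67.8]. Inside takinib it thus stood above cluster 11 for all 5 subunits, and Rela was the nearest, at 70.2 against 57.7 CPM. The share of all genes higher in cluster 20 was not counted, so these levels describe the subunits only. Immature neutrophil- or granulocyte-precursor-like cells of takinib (708 cells, led by Camp, Ngp and Elane) held less of each than cluster 11, with 70.2 CPM of Nfkb1 [63.4, 77.6], 43.5 of Rel [38.2, 49.4], 27.2 of Rela [23.0, 31.9], 20.9 of Nfkb2 [17.2, 25.0] and 13.2 of Relb [10.4, 16.7]. Here too the share of all genes that were lower was not counted. An unnamed cluster of 3443 takinib cells and 1 vehicle cell, led by Lst1, Chil1 and Lcn2, lay between clusters 11 and 20 for Nfkb1, at 131 CPM [122, 141], and for Rel, at 112 [104, 121].

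**Figure D3:**
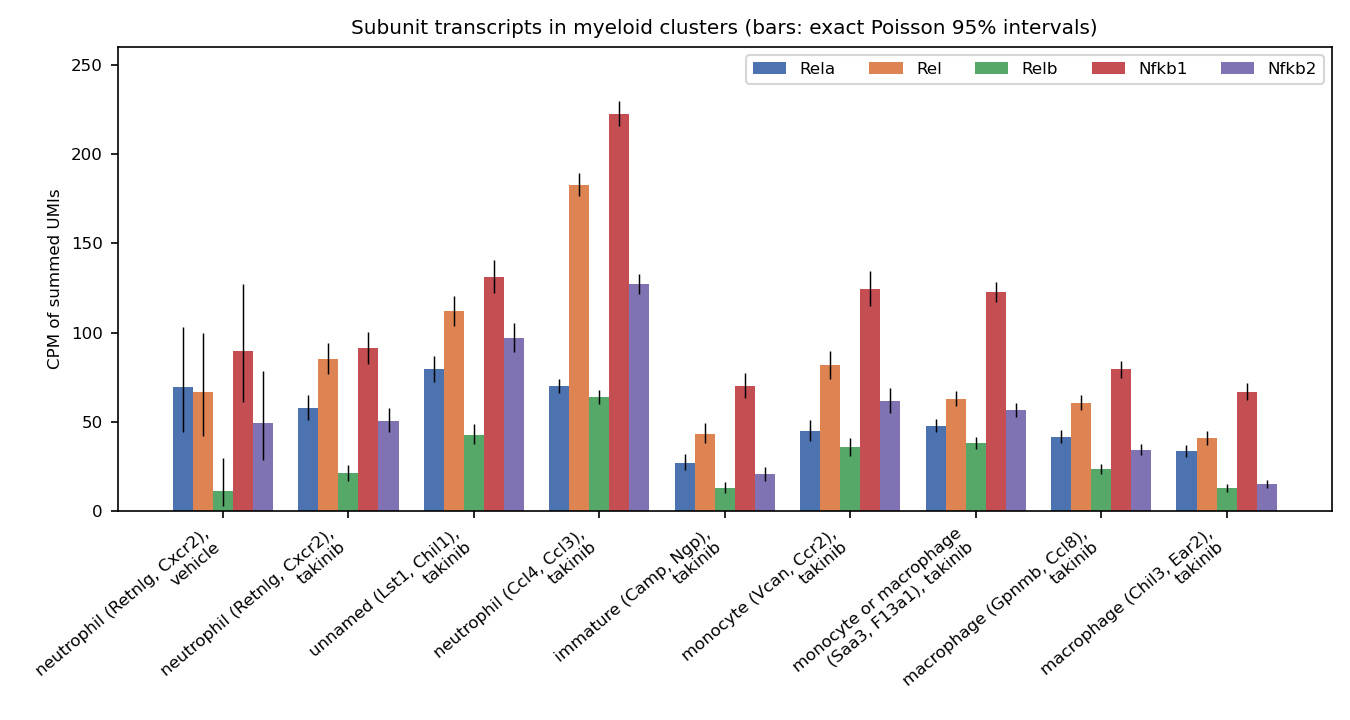
Level of the 5 subunits (y axis, CPM of summed UMIs, bars from 0 with exact Poisson 95% intervals) in myeloid clusters named by class and 2 leading genes (x axis). Cluster 11 (Retnlg, Cxcr2) has overlapping intervals in the 2 libraries for every subunit, and cluster 20 of takinib (Ccl4, Ccl3) is the highest plotted for Rel, Relb, Nfkb1 and Nfkb2 but not for Rela.

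Relb and Nfkb2, the genes of the non-canonical pair, were on the same side of 0 in macrophage-, dendritic-, T- or NK- and epithelial- or acinar-like cells, besides neutrophil-like cells, and on opposite sides in the other 3 classes. Relb in B-like cells had 5 counts in vehicle (12.6 CPM [4.10, 29.5]) and 53 in takinib (47.9 CPM [35.9, 62.7]), a log2 ratio of 1.92 [0.61, 3.61]. Nfkb2 in the same cells had 48.0 and 40.7 CPM (-0.24 [-1.04, 0.62]). In epithelial-like cells Relb had 25.0 and 27.9 CPM (0.16 [-0.10, 0.43]) and Nfkb2 37.4 and 36.2 CPM (-0.05 [-0.27, 0.17]). In fibroblast-like cells Relb had 22.6 and 22.8 CPM (0.01 [-0.48, 0.51]) and Nfkb2 33.2 and 28.7 CPM (-0.21 [-0.63, 0.22]). In macrophage-like cells Relb had 16.2 and 19.4 CPM (0.26 [0.07, 0.46]) and Nfkb2 25.2 and 27.6 CPM (0.13 [-0.03, 0.29]). The ratios of Relb and Nfkb2 were -0.23 [-0.82, 0.35] and -0.50 [-1.17, 0.17] in dendritic-like, -0.05 [-1.09, 1.15] and -0.13 [-0.86, 0.69] in T- or NK-like, and 0.33 [-0.22, 0.92] and 0.07 [-0.33, 0.48] in epithelial- or acinar-like cells. The lower bounds for Relb in B-like and neutrophil-like cells were above 1.5-fold, on 5 and 4 vehicle counts. Nfkb2 in neutrophil-like cells, at 1.18 [0.50, 1.97], lay above 0 with a lower bound under 1.5-fold. The other intervals included 0 or lay within 1.5-fold.

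Dendritic-like cells were few and of several kinds. A sub-cluster led by Fscn1, Ccr7, Ccl22, Cacnb3 and Il4i1, genes of migratory dendritic cells, held 34 vehicle and 23 takinib cells and the highest levels seen for 4 of the 5 subunits in sets of at least 20 cells in each library. Relb had 346 CPM [233, 494] in vehicle and 380 [258, 539] in takinib, and Rel 369 [252, 521] and 478 [340, 653]. Nfkb1 had 588 CPM [438, 773] and 282 [179, 423], and Nfkb2 254 [159, 384] and 159 [84.8, 272]. Rela, with 4 and 9 counts, had 46.1 CPM [12.6, 118] and 110 [50.4, 209]. The sub-cluster led by Xcr1 and Clec9a, genes of cross-presenting dendritic cells, held 12 vehicle cells and 25 takinib cells, and its takinib levels were 156 CPM of Nfkb1 [97.5, 236], 63.7 of Rel [29.1, 121] and 14.1 of Relb [1.71, 51.1]. The make-up of the class differed between the libraries: 83 of 145 vehicle cells but 1 of 118 takinib cells were in a sub-cluster led by Ccl24, Dcstamp and Mmp12, and 64 takinib cells but 7 vehicle cells were in one led by Wfdc21 and S100a8. The first of these held no Xcr1 or Clec9a and 16.9 CPM of Flt3, a dendritic cell receptor, with 304 CPM of Cd209a, and Fn1, Dab2 and Lyz2, genes that macrophages also express, were among its leading genes. By number, most dendritic-like cells of vehicle were thus in this sub-cluster. The 34 vehicle cells of the migratory sub-cluster had higher levels of Rel, Relb, Nfkb1 and Nfkb2 than the class as a whole. The class values of these 4 subunits therefore do not describe the larger sub-cluster alone.

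The share that each subunit took of the summed UMIs of all 5 showed the same contrast between Rel and Nfkb1. Over all kept cells Nfkb1 took 44.3% in vehicle and 34.1% in takinib, and Rel 15.8% and 23.9%. In macrophage-like cells Nfkb1 took 45.0% and 35.6% and Rel 21.1% and 25.1%. In epithelial-like cells Nfkb1 took 39.7% and 29.8% and Rel 6.63% and 14.9%. In T- or NK-like cells Nfkb1 took 52.3% and 43.0% and Rel 12.9% and 19.8%. In fibroblast-like cells the shares of Nfkb1 were 45.2% and 44.0%, and in neutrophil-like cells 31.3% and 33.0%. These shares do not depend on how a class is scaled, but they do depend on neutrophil transcripts in other classes.

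Single cells seldom held a UMI of any subunit. Nfkb1 had a UMI in 31.8% of vehicle and 33.6% of takinib cells, and in 10.8% and 12.2% once each cell was thinned to 1000 UMIs. Thinning was needed because the classes differ in depth: macrophage-like cells had medians of 3929 and 6154 UMIs, and the share with Rel was 16.8% and 27.1% before thinning but 4.91% and 4.92% after. In erythroid-like takinib cells, a class that should hold little of these genes (501 cells, median 4734 UMIs), the thinned shares were 7.98% for Nfkb1, 5.39% for Rel, 3.99% for Rela, 3.59% for Nfkb2 and 2.59% for Relb. The thinned takinib shares of Rel in epithelial-like (4.31%), fibroblast-like (1.28%) and epithelial- or acinar-like cells (2.41%) were below that, as were those of Nfkb1 in epithelial-like (7.61%) and epithelial- or acinar-like cells (4.55%), and their CPM overlapped that of erythroid-like cells or lay below it. These are not read as expression. Macrophage-like cells had shares of 4.92% for Rel and 7.92% for Nfkb1. Their 76.4 CPM of Nfkb1 [73.3, 79.5] overlapped the 65.0 [57.2, 73.7] of erythroid-like cells, so it is not read as expression either. For Rel they had 53.8 CPM [51.3, 56.5] against 26.5 [21.6, 32.2] in erythroid-like cells, so no order is read from the share. T- or NK-like cells, with Rel in 5.42%, likewise had 57.5 CPM [47.8, 68.5]. Above the erythroid-like shares stood Rel in dendritic-like (19.5%), B-like (15.6%) and neutrophil-like cells (13.8%), and Nfkb1 in dendritic-like (21.2%), neutrophil-like (16.4%), B-like (12.3%) and T- or NK-like cells (11.5%). Vehicle had 2 erythroid-like cells, too few for such a level. Its 376283 barcodes of 1 to 100 UMIs, with 652323 UMIs in all, held 118 CPM of Nfkb1 [93.2, 148] and 46.0 of Rel [31.0, 65.7], beside 97.8 and 45.8 CPM in vehicle macrophage-like cells.

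The genes whose levels over the 8 classes were most like those of a subunit in both libraries differed by subunit. Likeness was the lower of the Pearson correlations of log2(CPM + 10) in the 2 libraries, over 8 classes that share their library and depth, among 10556 genes with at least 200 counts in each. For Nfkb1 the first 3 were Gbp5, an interferon-inducible GTPase (0.94), Gpr132 (0.89) and Traf1, an adaptor of TNF receptors (0.89). For Nfkb2 they were Traf1 (0.88), Nfkb1 itself (0.87) and Emd (0.84), and for Relb Nfkb1 (0.82), Map3k14, which encodes NIK (0.82), and Kit (0.80). For Rel they were Icosl, a costimulatory ligand (0.94), Dennd4b (0.92) and N4bp2l1 (0.91), and for Rela they included Pdzd8 (0.89) and Kdm6b, a histone demethylase (0.87). Rela was the subunit least like the rest, with vehicle correlations of -0.18 with Rel, -0.32 with Relb, -0.23 with Nfkb1 and 0.06 with Nfkb2, against 0.69, 0.72, 0.62 and 0.84 in takinib. Nfkb1 and Nfkb2 had 0.87 and 0.89. The vehicle levels of Rela rested on few counts in several classes. There were 14 in B-like, 14 in dendritic-like, 19 in T- or NK-like and 24 in neutrophil-like cells, so its vehicle correlations carry much counting error.

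The genes around the subunits were counted by list in the same way. Of the 6 genes of the IkB family, 4 of 6 counted in epithelial-like, 5 of 6 in T- or NK-like, 4 of 6 in neutrophil-like, 3 of 5 in fibroblast-like, 3 of 5 in epithelial- or acinar-like, 3 of 4 in B-like, 2 of 6 in macrophage-like and 1 of 2 in dendritic-like cells were at least 1.5-fold higher, and only Bcl3 in epithelial- or acinar-like cells was that much lower. Of all genes counted, 13.6%, 17%, 15%, 15.4%, 12.6%, 16.6%, 12.7% and 14.6% were higher in these classes, in the same order. The median of the list was 0.96 in epithelial-like cells, where the median gene was at -0.14, and 0.37 in macrophage-like cells, where it was at 0.06. The highest ratio of the list in epithelial-like cells was that of Nfkbia, the inhibitor IkB-alpha and a textbook NF-kB target, at 84.4 and 540 CPM (2.68 [2.56, 2.80]), and the lowest that of Bcl3 (-0.17 [-0.38, 0.03]). Nfkbia also led in fibroblast-like (2.46 [2.28, 2.64]), epithelial- or acinar-like (2.31, from 49.1 and 244 CPM), T- or NK-like (1.87 [1.52, 2.24]) and dendritic-like cells (1.01 [0.71, 1.32]). Nfkbib led in neutrophil-like (2.19 [1.31, 3.25], on 10 vehicle counts) and macrophage-like cells (0.69 [0.53, 0.84]). Nfkbid led in B-like cells (4.28 [2.71, 6.57], on 3 vehicle counts). Nfkbia had 3237 CPM in takinib neutrophil-like cells, whose transcripts were found in the other classes as described for S100a8 and S100a9, and their part in these ratios was not tested.

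Of the 7 genes of the TAK1 and IKK kinase complexes, 1 of 7 counted was at least 1.5-fold higher in macrophage-like cells, Tab3 (0.65 [0.31, 0.99]), and none in the other classes. Ikbkb in epithelial-like cells, Tab1 in epithelial- or acinar-like cells (-0.84 [-1.28, -0.38]) and 2 of 4 counted in T- or NK-like cells were at least 1.5-fold lower, where 20.9%, 14% and 14.5% of all genes counted were. In neutrophil-like cells all 6 counted were at least 1.5-fold lower, where 55.2% of genes were, with a median of -0.74 where the median gene was at -0.79, from Tab3 (-0.68 [-1.82, 0.78]) to Ikbkb (-1.08 [-1.59, -0.52]). Relative to the median gene of that class the list median was 0.058. Ikbkb, the catalytic subunit IKK-beta, was also the lowest of the list in epithelial-like (-0.94 [-1.11, -0.76]), fibroblast-like (-0.51 [-0.89, -0.14]), dendritic-like (-0.44 [-0.90, 0.01]), macrophage-like (-0.36 [-0.45, -0.28]) and B-like cells (-0.23 [-0.72, 0.28]).

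Of the 10 genes of the non-canonical arm, Tnfrsf1b, the second TNF receptor, had the highest ratio in neutrophil-like (51.9 and 528 CPM, 3.35 [2.69, 4.10]), epithelial-like (2.54 [2.24, 2.84]), epithelial- or acinar-like (1.37 [0.93, 1.84]), fibroblast-like (0.97 [0.63, 1.31]), dendritic-like (0.98 [0.24, 1.76]) and macrophage-like cells (0.67 [0.59, 0.76]). Birc3, which encodes cIAP2, led in B-like (0.95 [0.42, 1.53]) and T- or NK-like cells (0.72 [0.06, 1.46]). Tnfrsf1b had 13.5 and 78.0 CPM in epithelial-like and 37.9 and 74.1 CPM in fibroblast-like cells. In takinib neutrophil-like cells Tnfrsf1b had 528 CPM and Birc3 284 CPM, and neutrophil transcripts were found in the other classes as described for S100a8 and S100a9. The part of those transcripts in these ratios was not tested. The lowest were Cd40 in epithelial-like cells (7.84 and 1.70 CPM, -2.21 [-3.02, -1.46]), Birc2 in neutrophil-like cells (-1.19 [-1.93, -0.34]) and Traf2 in epithelial- or acinar-like cells (-1.09 [-1.58, -0.59]). In macrophage-like cells 1 of 9 counted was past the fold upward and 0 downward, with a median of -0.02, where 12.7% of genes were higher and 10.4% lower. Some leading genes passed the minimum of 50 counts only through takinib. These were Tnfrsf1b in neutrophil-, epithelial- or acinar- and dendritic-like cells (18, 49 and 22 vehicle counts) and Birc3 in B- and T- or NK-like cells (34 and 20). Of the 9 ligand genes, 3 of 4 counted were at least 1.5-fold higher in epithelial-like, 4 of 4 in epithelial- or acinar-like, 4 of 5 in fibroblast-like, 3 of 4 in T- or NK-like, 2 of 5 in neutrophil-like, 1 of 6 in macrophage-like, 1 of 2 in B-like and 1 of 1 in dendritic-like cells. The shares of all genes higher in these classes, in the same order, were 13.6%, 12.6%, 15.4%, 17%, 15%, 12.7%, 16.6% and 14.6%. In fibroblast-like and neutrophil-like cells 1 ligand each was that much lower, where 24.1% and 55.2% of genes were. Several ligands passed the minimum only through takinib. Tnf, Il1a and Il1b had 4, 1 and 23 vehicle counts in T- or NK-like cells, and Tnf, Il1a and Tnfsf11 had 7, 10 and 9 in fibroblast-like cells. The counts of ligands thus support nothing. Il1b had the highest ratio in epithelial-like (21.4 and 936 CPM, 5.45 [5.23, 5.68]), fibroblast-like (4.07 [3.77, 4.38]), epithelial- or acinar-like (3.60 [3.31, 3.90]), B-like (2.08 [1.49, 2.73]) and neutrophil-like cells (5070 and 7965 CPM, 0.65 [0.58, 0.72]). The epithelial-like and fibroblast-like values again lie beside the neutrophil transcripts counted in those classes.

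**Figure D4:**
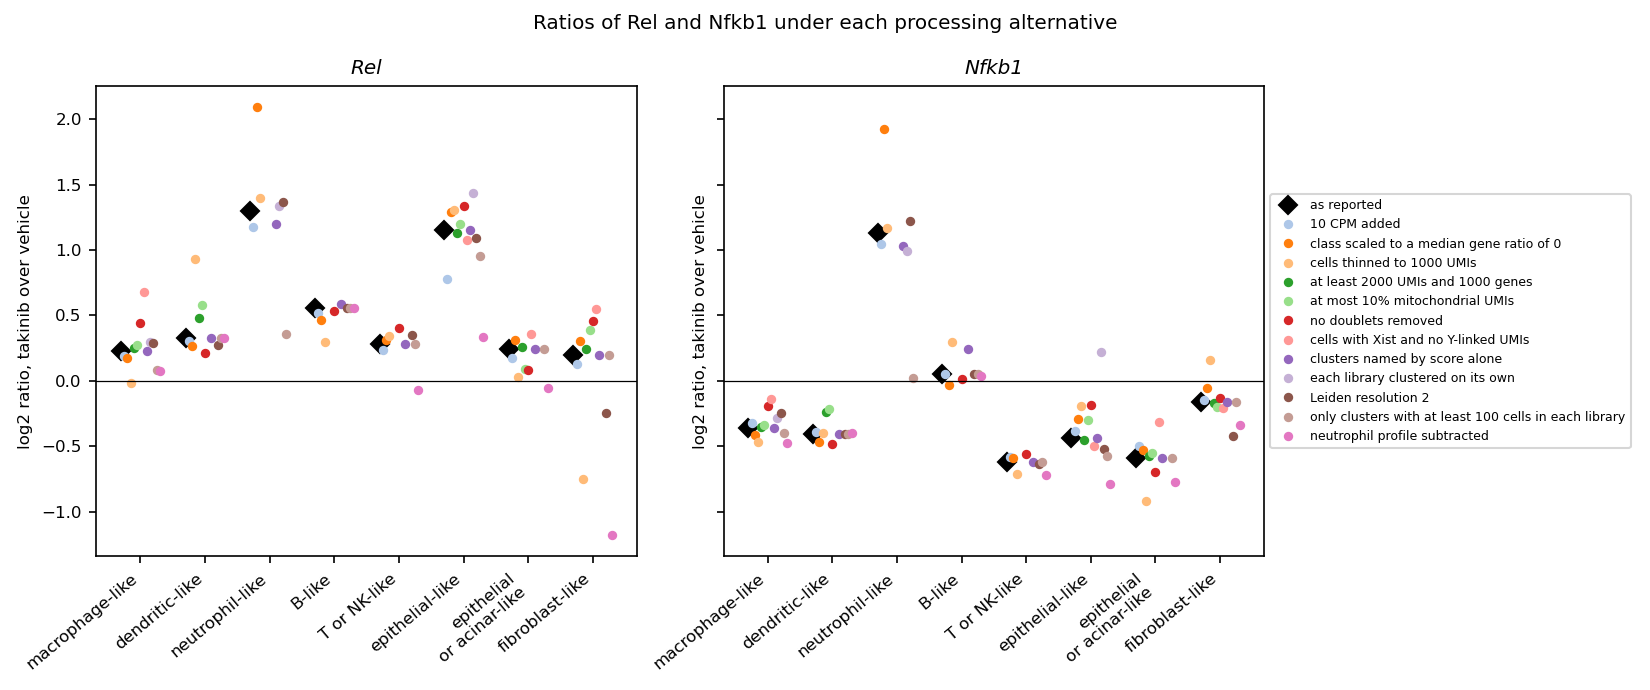
Log2 ratio of takinib to vehicle (y axis) for Rel and Nfkb1 in the 8 classes (x axis), as reported (black diamonds) and under each processing alternative (coloured points). Nfkb1 points lie below 0 in macrophage-, T- or NK-, dendritic- and epithelial- or acinar-like cells under every alternative that gave a value, and the Rel point with the neutrophil profile subtracted is the lowest in epithelial- and fibroblast-like cells.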

How the data were processed

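The authors deposited unnormalised UMI counts for each gene in each barcode, made with Cell Ranger 4 (vehicle) and 6.1.1 (takinib) per the file headers; the submitters' processing notes name Cell Ranger 2.1.1 and mm10. Vehicle listed 704261 barcodes and takinib 34158, none of the latter under 500 UMIs. Cells had at least 1000 UMIs and 500 genes and at most 20% mitochondrial UMIs. Scrublet removed 281 of 9872 vehicle barcodes; in takinib it marked 0.00373%, and the 1607 barcodes in the top 6% of its scores were dropped in its place. Cells of both libraries were clustered jointly in scanpy 1.11.5 (2000 variable genes without the members, 30 components, Leiden resolution 1). Clusters were named from markers of 20 classes, needing 3 detected markers, and tied relatives were joined under a double name. Clusters whose leading genes went against the name or whose second class was close stayed unnamed (3443 and 571 takinib cells in 2 clusters).

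Counts were summed per class and library into CPM; ratios have no pseudocount. Poisson intervals are exact, ratio intervals are exact conditional binomial intervals, and share intervals are Clopper-Pearson. A fold of 1.5 was read among genes with at least 50 counts in a library of the class. The genes named are the members, the 3 genes most like each (1 is not reported here), and the highest and lowest gene of each pathway list per class. Members, lists and rules were chosen with earlier results of these data known. The 12 alternatives for the ratios are given in the closing section.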

Additional observations from a re-analysis of the deposited data

Results flagged for a closer look

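Nfkb1 had ratios of opposite sign in different classes of cells, with counting intervals on opposite sides of 0. Its log2 ratio of takinib to vehicle was -0.62 in T- or NK-like, -0.59 in epithelial- or acinar-like, -0.43 in epithelial-like, -0.41 in dendritic-like and -0.36 in macrophage-like cells, and 1.13 in neutrophil-like cells. With 1 library per group the difference was not tested, and in the neutrophil cluster shared by both libraries the ratio was 0.02. The neutrophil-like ratio rested on 31 vehicle counts. The takinib levels of Nfkb1 in epithelial-, epithelial- or acinar- and macrophage-like cells overlapped that of erythroid-like cells or lay below it. Those levels were not read as expression.

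The vehicle matrix also held 68059 barcodes with more than 100 and fewer than 500 UMIs, too shallow to be kept, with 22612365 UMIs in all. They held 73.5 CPM of Nfkb1 [70.1, 77.2], 44.3 of Rel [41.6, 47.1], 19.4 of Rela [17.6, 21.3], 17.0 of Nfkb2 [15.3, 18.8] and 12.1 of Relb [10.7, 13.6], each with more than 3 counts. Takinib had no barcodes of this depth to set beside them.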

How the results depend on the processing

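No paired analysis was possible because each group has 1 library. Of the member ratios recomputed under the alternatives, 359 stayed close to the reported value and 86 moved by more than its counting interval. The count of pairs at least 1.5-fold higher, 6 of 36 as reported, was 10 with cells thinned to 1000 UMIs, 1 of 23 at 2000 UMIs and 1000 genes, 1 of 23 at a 10% mitochondrial limit, 2 of 31 with no doublets removed, 1 of 31 with the neutrophil profile subtracted and 3 of 20 in cells with Xist and no Y-linked UMIs. It was 3 of 36 in clusters with at least 100 cells in each library, an alternative chosen after seeing the data. The count of pairs lower, 2 of 36, was 0 with 10 CPM added, 1 with each class scaled to its median gene, 0 of 23 under both stricter cell filters, 1 of 31 with no doublets removed, 6 of 31 with the profile subtracted, 1 of 20 in cells with Xist and 0 of 15 with each library clustered on its own. Naming clusters by score alone left both counts at 6 and 2 of 36, and a Leiden resolution of 2 at 6 and 2 of 31. Fewer classes reached 50 cells under several of these, which alone lowers a count. Classes with Rel above 0, 8 of 8, were 5 of 5 under both stricter filters, 4 of 7 with the profile subtracted, 4 of 4 in cells with Xist and 3 of 3 with separate clustering. Classes with Nfkb1 below 0, 6 of 8, were 1 of 3 with separate clustering; the cause was not tested. The median of the canonical kinases in neutrophil-like cells, -0.74 as reported, was 0.058 after scaling to the median gene, which stands at -0.79. Depth limits Relb most, with 4 and 5 vehicle counts in neutrophil-like and B-like cells.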
